A study of Saccharomyces cerevisiae with 6 samples.

Results

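The 30 genes described here make the sterol of the yeast membrane, store it or set its level. They were chosen by name from the RNA sequencing tables of 6 budding yeast libraries, where all 30 were found once each among 7126 features. They comprise 9 genes of the mevalonate steps, 8 from squalene to zymosterol, 5 from zymosterol to ergosterol, 3 partner proteins of these enzymes, 2 sterol acyltransferases and 3 transcription factors.

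Polyadenylated RNA came from 3 strains labelled S288c and grown in rich glucose medium (YPD), with 2 libraries each. The wild type (WT) is MATa GAL [phi+], with mutant alleles of 6 genes: can1-100 and ura3, the adenine allele ade2-1, and leu2-3, his3-11,15 and trp1-1. HIS3 and KanMX6 were inserted between YKL006C-A and YKL006W, and the source label reads monosome XI. D8A and D8B share one genotype label, MATa his3 leu2 met15 ura3 with 8 thiol peroxidase genes and the sulfiredoxin gene SRX1 deleted. KAN replaced TSA1 and GPX3 (listed as HYR1), URA3 replaced PRX1 and GPX1, and LEU2, MET15, HIS3, HYG and NAT replaced TSA2, DOT5, AHP1, GPX2 and SRX1 in that order. The study as a whole concerns aneuploidy in cells that lack these peroxide-reducing enzymes. The labels name no difference between D8A and D8B. Nothing says that the 2 libraries of a strain were grown apart, and p-values therefore measure library spread alone, which may be technical. The wild type and the null strains also differ in marker alleles, and the insertion and the monosome XI label belong to the wild type alone. The effect of the deletions and that of the background therefore cannot be told apart.

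Ergosterol is the main sterol of fungal membranes. Its synthesis runs from acetyl-CoA through mevalonate to farnesyl diphosphate, then through squalene and lanosterol, and the later steps need molecular oxygen, haem and iron. The zinc cluster factors Upc2 and Ecm22 bind a short sterol response element before many ERG genes, and excess sterol is stored as esters made by Are1 and Are2.

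Levels are the deposited FPKM, which divide a feature's fragments by its length and by the library's total. Estimated depth ranged from 4020000 to 14160000 fragments, with D8A replicate 1 the shallowest, and an estimated 40 (SUT1) to 14647 (ERG3) fragments lay behind each value of a member. D8A replicate 1 also stood apart, with correlations across features of 0.909 to 0.938 with the other libraries, against 0.976 between the wild-type libraries and 0.973 between those of D8B. The value of 0.938 was that with D8A replicate 2. That library correlated more closely, at 0.9414 to 0.9645, with the libraries of the other strains. Of the 9 genes labelled as deleted, 8 fell in both null strains, but SRX1 rose from 64.8 FPKM in wild type to 367 in D8A and 619 in D8B (limma adjusted p = 0.00248 and 0.000761), against its label. The a-specific gene STE2 held 113 to 200 FPKM and the alpha-specific gene STE3 8.13 to 19.0 in every library, as the label MATa states. FPKM of short features tended to lie above their own deposited interval. Against the middle of that interval, FPKM was at a median 2.17 times for CYB5 (363 bp), 1.75 for ERG28 (447 bp) and 1.42 for ERG2 (669 bp), so levels of these genes may be too high beside those of longer genes. With interval midpoints in place of FPKM the D8A changes against wild type given below were -1.23 for CYB5, -1.94 for ERG28 and -1.57 for ERG2.

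The 500 bases before each reading frame were searched in the R64 genome of RefSeq for the core of the sterol response element, TCGTATA, on both strands. It occurred before 9 of the 30 genes (12 matches), and before 420 of 6000 protein-coding genes of the nuclear genome, 7.0%. The sequences below are those of the 4 genes that carry a match and passed a test in this study. Each is printed on the strand of its gene, with the match in capitals, and TATACGA is the same element read from the opposite strand.
ERG28, chrV:238263-238319, minus strand: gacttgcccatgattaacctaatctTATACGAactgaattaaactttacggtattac
ERG2, chrXIII:667327-667383, plus strand: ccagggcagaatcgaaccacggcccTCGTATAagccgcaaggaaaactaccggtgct
CYB5, chrXIV:417546-417602, minus strand: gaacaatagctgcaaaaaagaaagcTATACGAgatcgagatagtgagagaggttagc
ERG3, chrXII:253510-253606, plus strand: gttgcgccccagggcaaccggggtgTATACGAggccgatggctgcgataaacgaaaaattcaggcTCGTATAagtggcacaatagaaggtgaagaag
The matches began 278 bases before the reading frame of ERG28, 185 before ERG2, 275 before CYB5, and 286 and 326 before ERG3. The other genes with a match were ERG13, ERG8, ERG1, ERG25 and ERG6, and ERG25 held 2, at 463 and 483 bases. ERG4 and ARE1, which also passed a test, had none in this window, and neither had UPC2, ECM22 or SUT1. The Rox1 core ATTGTT, searched the same way, is common, with 19 of 30 members and 48.9% of all windows, and it overlapped none of the 12 sterol element matches. The spaced pair of CGG triplets bound by Hap1 was before 0 of 30 members and 0.35% of all windows. A match is a description of the letters and not a binding site.

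The first comparison asked how sterol genes differed between D8A and wild type. Sterol genes were mostly lower in D8A, and ERG28, ERG2 and CYB5 fell past the threshold. Over the members the median change was -0.49 on the log2(FPKM + 1) scale, beside -0.01 over all 6925 features tested. Of the 30 changes 25 were negative, where 3507 of the 6925 were. In limma, fitted to all features with Benjamini-Hochberg adjusted p under 0.05, 3 of 30 members were called lower, where 3.83% of all features were, and 0 were called higher, where 1.23% were. At an unadjusted p under 0.05, 13 members were lower, where 11.2% of all features were, and 2 higher, where 6.77% were. Both D8A libraries lay below both wild-type libraries for 22 of 30 members, where 26.1% of all features did, and above them for 2, ARE1 and ECM22, where 25.3% did. Without D8A replicate 1, the library that stood apart, the median of the members was -0.39. ERG28, ERG2 and CYB5 then changed by -2.09, -1.49 and -1.15.

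**Figure D1:**
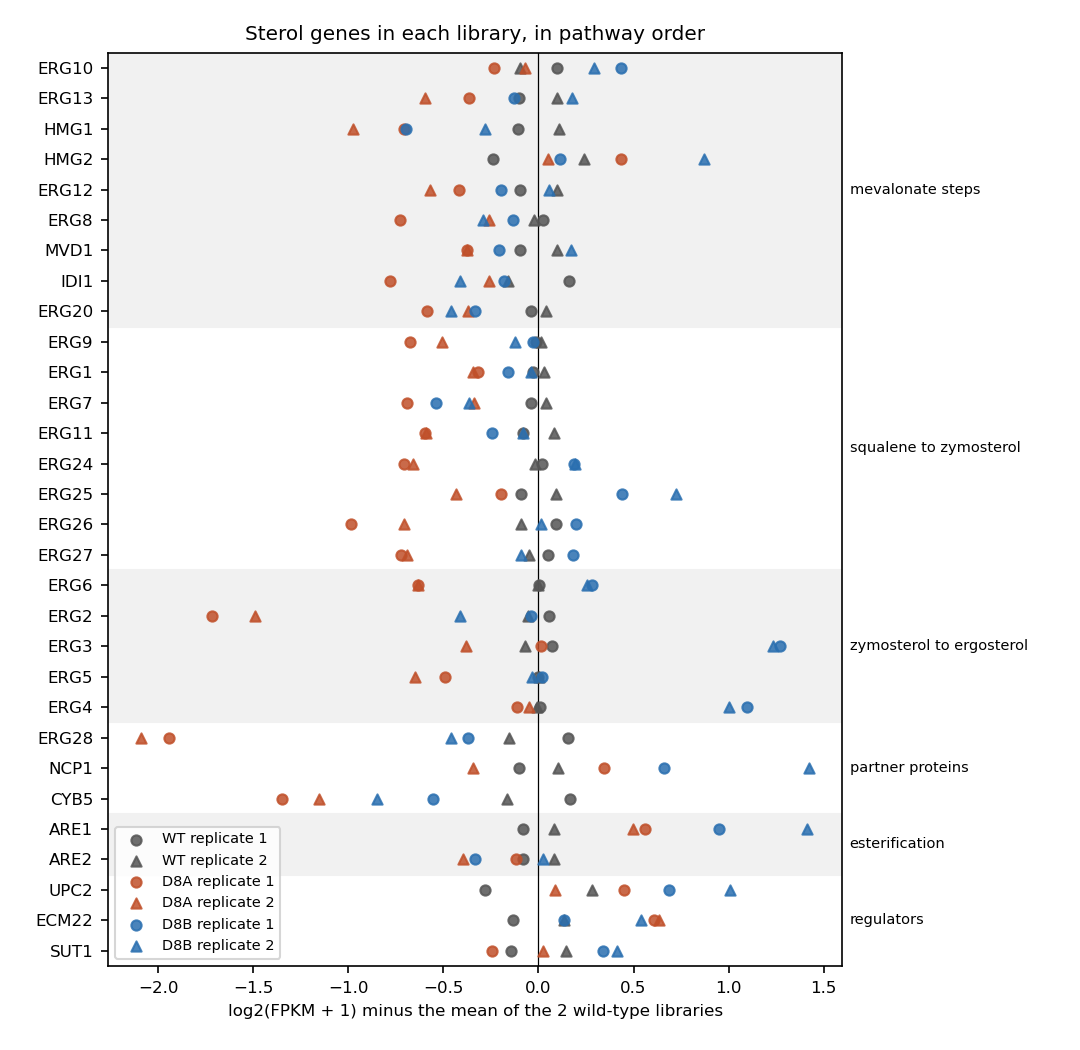
Each point is 1 library, placed by log2(FPKM + 1) minus the mean of the 2 wild-type libraries, with genes in pathway order from top to bottom. Both D8A libraries of ERG28, ERG2 and CYB5 sit at the far left, and both D8B libraries of ERG3 and ERG4 stand to the right of every other library of the same gene.

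ERG28 (YER044C, chromosome V, 237570 to 238016) encodes the membrane scaffold that holds the enzymes of sterol demethylation together. It was listed at 388 and 313 FPKM in WT, 90.0 and 81.2 in D8A and 269 and 253 in D8B. The 3 strains did not overlap, and D8A was 4.04-fold below wild type. The log2 change in D8A was -2.02 ± 0.22 (SE, n = 2 against 2, limma adjusted p = 0.00252). This call held in each of 15 alternatives, with a highest limma adjusted p of 0.0319. In D8B the change was -0.42 ± 0.22 and did not pass (limma adjusted p = 0.352). The gene is the only member on chromosome V, whose features had a median change of -0.09 in D8A and 0.18 in D8B against wild type. Between D8B and D8A that median was 0.23, the highest of any chromosome. In bulk RNA such as this, fewer cells with a transcript and less of it per cell cannot be told apart.

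ERG2 (YMR202W, chromosome XIII, 667537 to 668205), the sterol isomerase, was listed at 1064 and 988 FPKM in WT, 312 and 364 in D8A and 998 and 771 in D8B. D8A stood below the other strains, and D8B replicate 1 lay within the wild-type range. The change in D8A was -1.60 ± 0.25 (SE, limma adjusted p = 0.0114). It did not pass without wild-type replicate 1, wild-type replicate 2 or D8A replicate 1 (limma adjusted p = 0.103, 0.110 and 0.0514), nor with a replicate block (0.0588), while its size stayed between -1.49 and -1.66 in these fits.

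CYB5 (YNL111C, chromosome XIV, 416940 to 417302) encodes cytochrome b5, an electron carrier for sterol and lipid desaturation. It held 628 and 501 FPKM in WT, 220 and 251 in D8A and 382 and 311 in D8B. Both null strains lay below wild type and D8A lowest. The change was -1.25 ± 0.24 in D8A (SE, limma adjusted p = 0.0304) and -0.70 ± 0.24 in D8B (limma adjusted p = 0.171). The D8A call was lost without wild-type replicate 1, wild-type replicate 2 or D8A replicate 1 (limma adjusted p = 0.235, 0.153 and 0.101), with a replicate block (0.0861) and without the filter on low values (0.0506).

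**Figure D2:**
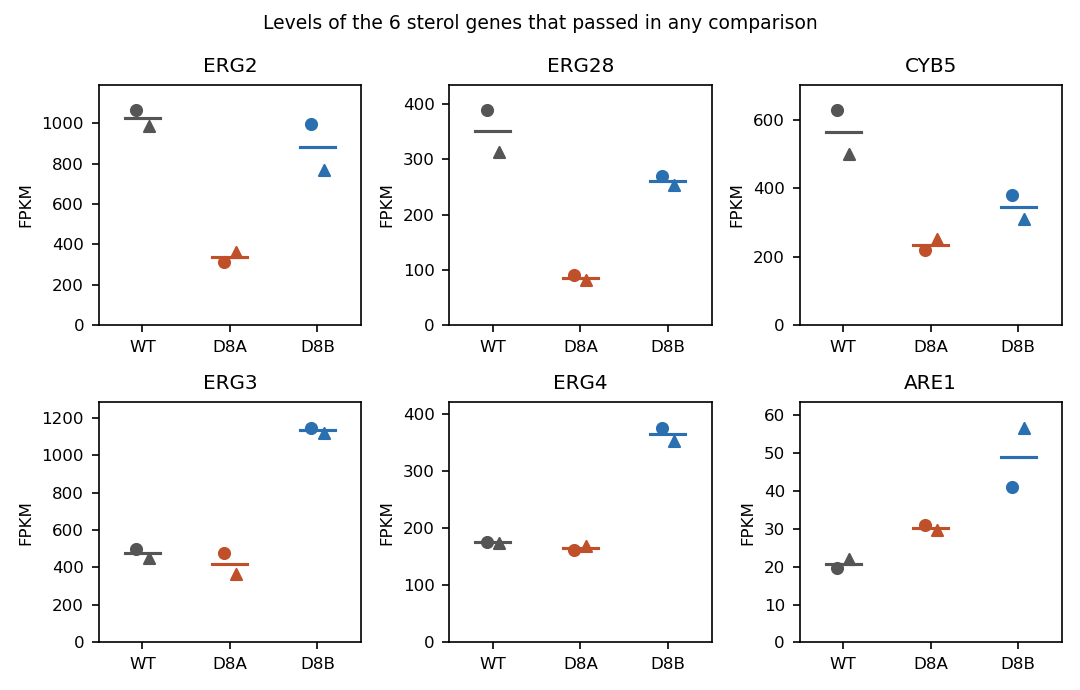
FPKM of the 6 sterol genes that passed in any comparison, by strain, with circles for replicate 1, triangles for replicate 2 and a line at the mean of the 2. ERG28, ERG2 and CYB5 are lowest in D8A, while ERG3, ERG4 and ARE1 are highest in D8B.

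The second comparison asked the same of D8B and wild type. It shares the wild-type libraries with the first. In D8B ERG3 rose 2.38-fold, ARE1 2.27-fold and ERG4 2.07-fold, and 0 members fell past the threshold. These were 2 of the 5 last steps and 1 of the 2 acyltransferases, and the others of both groups did not pass. The median change was 0.01 over the members and 0.06 over all features. Of the members 15 changes were positive and 15 negative, where 3861 and 3064 of 6925 features were. In limma 3 of 30 members were called higher, where 1.21% of all features were, and 0 lower, where 3.68% were. At an unadjusted p under 0.05, 6 members were higher, where 8.01% of all features were, and 1 lower, where 11.0% were. Both D8B libraries lay above both wild-type libraries for 11 members and below them for 10, where 30.0% and 25.9% of all features did.

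ERG3 (YLR056W, chromosome XII, 253861 to 254958), the sterol desaturase that acts on the product of Erg2, was listed at 498 and 451 FPKM in WT, 479 and 363 in D8A and 1147 and 1117 in D8B. D8A overlapped wild type, and D8B lay far above both. The change in D8B was 1.25 ± 0.24 (SE, limma adjusted p = 0.0295), and in D8A it was -0.18 ± 0.24 (limma adjusted p = 0.717). The ratio of ERG3 to ERG2 FPKM was 0.468 and 0.457 in WT, 1.54 and 0.998 in D8A and 1.15 and 1.45 in D8B, higher in every null library through a lower ERG2 in D8A and a higher ERG3 in D8B.

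ERG4 (YGL012W, chromosome VII, 472855 to 474276), the reductase of the last step, held 176 and 174 FPKM in WT, 162 and 170 in D8A and 376 and 353 in D8B. The wild-type and D8A values lay close together and those of D8B apart. The change in D8B was 1.05 ± 0.21 (SE, limma adjusted p = 0.0297), and in D8A -0.08 ± 0.21 (limma adjusted p = 0.850).

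ARE1 (YCR048W, chromosome III, 211929 to 213761) encodes 1 of the 2 enzymes that join sterols to fatty acids for storage. It held 19.5 and 22.0 FPKM in WT, 31.0 and 29.6 in D8A and 41.0 and 56.7 in D8B, and the 3 strains did not overlap. The change was 1.18 ± 0.21 in D8B (SE, limma adjusted p = 0.0221) and 0.53 ± 0.21 in D8A (limma adjusted p = 0.251). ARE1 overlaps YCR049C by 389 bp and YCR050C by 298 bp. YCR050C, listed at 91.1 and 116 FPKM in wild type and 149 and 202 in D8B, moved with it, and the strand used in counting is not given, so reads of these features cannot be told apart.

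The calls of ERG3, ERG4 and ARE1 were each lost in fits that left 1 library in the wild type or in D8B. Without wild-type replicate 1 the limma adjusted p was 0.162, 0.209 and 0.162, and without wild-type replicate 2 it was 0.294, 0.294 and 0.142. Without D8B replicate 2 it was 0.129, 0.133 and 0.127. Without D8B replicate 1 ERG3 and ERG4 were lost (0.118 and 0.134) and ARE1 was kept. With a replicate block ERG3 and ERG4 did not pass (0.0863 and 0.0900). ERG3 was also lost with quantile normalization (0.0594) and ARE1 without the filter on low values (limma adjusted p = 0.0679). In the fits without a library the change lay between 1.18 and 1.32 for ERG3, between 1.00 and 1.10 for ERG4 and between 0.95 and 1.41 for ARE1.

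The third comparison set the null strains, which carry the same genotype label, against each other. D8B was higher than D8A for 29 of 30 members, all but ECM22, where it was for 4056 of 6925 features. The median was 0.52 beside 0.07 over all features. The single call was ERG28, higher in D8B by 1.60 ± 0.22 (SE, limma adjusted p = 0.0369), where 0.217% of all features were called higher and 0.116% lower. At an unadjusted p under 0.05, 13 members were higher in D8B and 0 lower, where 4.74% and 4.45% of all features were. Both D8B libraries lay above both D8A libraries for 23 members and below them for 1, where 19.7% and 15.1% of all features did. The ERG28 call was lost in 9 of 15 alternatives, among them those without wild-type replicate 1, wild-type replicate 2, D8A replicate 1, D8B replicate 1 or D8B replicate 2 (limma adjusted p = 0.0820, 0.0763, 0.0548, 0.174 and 0.147), and without a library its size lay between 1.53 and 1.67. ERG3 (1.44), ERG2 (1.38) and ERG4 (1.13) had the next largest differences among the enzymes and did not pass (limma adjusted p = 0.0762, 0.0841 and 0.0856).

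**Figure D3:**
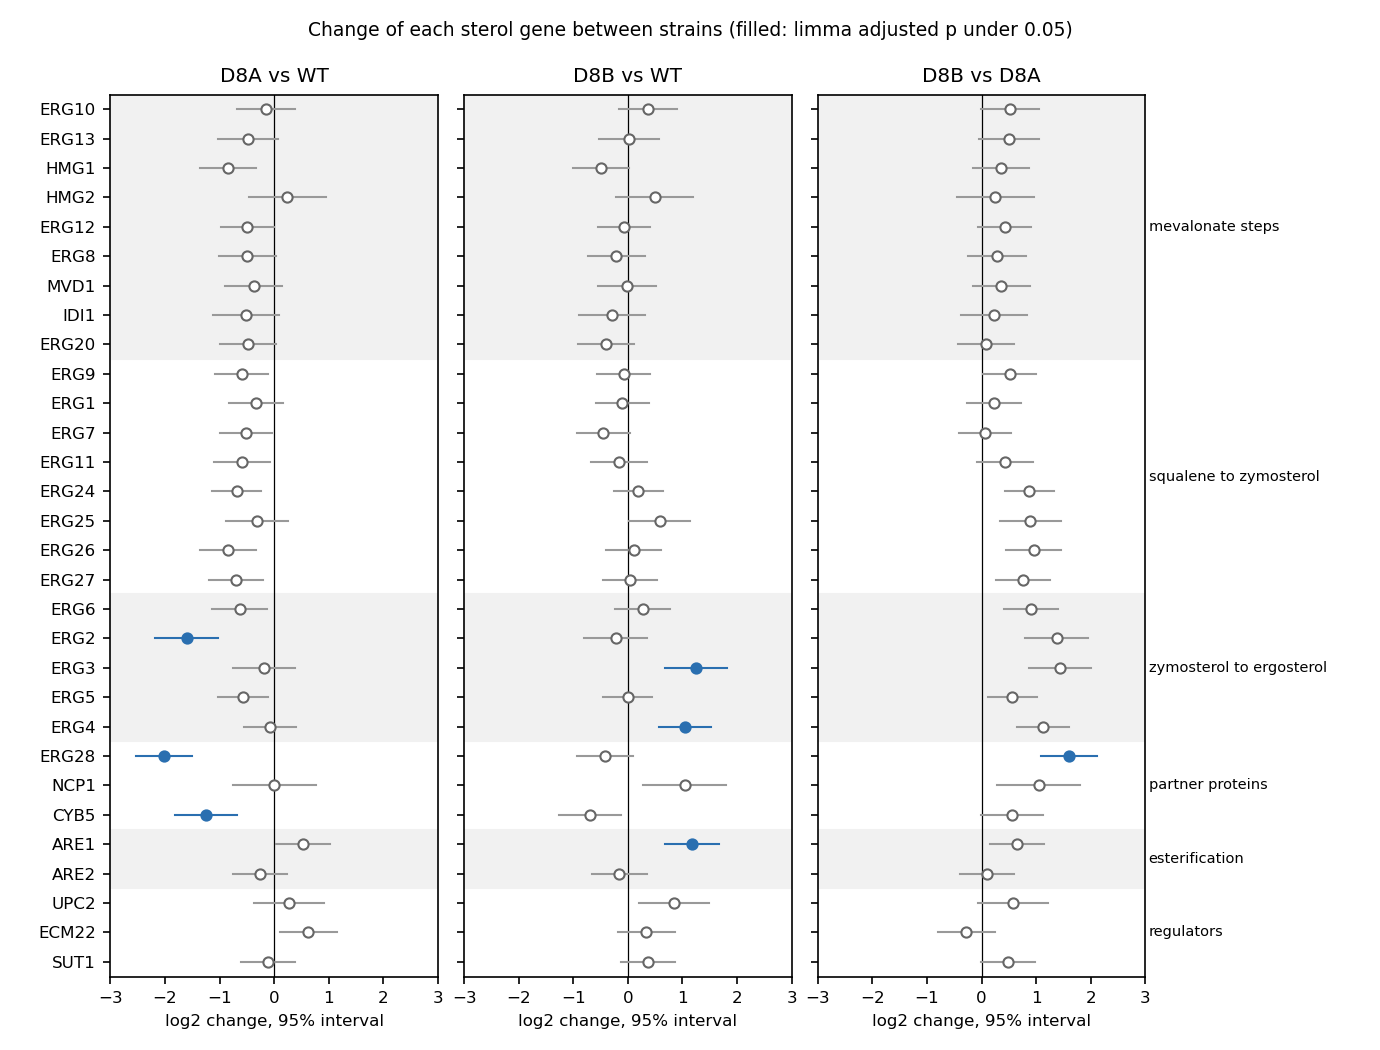
Log2 change of each sterol gene with its 95% interval from limma, for D8A against WT, D8B against WT and D8B against D8A, with filled points where the limma adjusted p is under 0.05. The D8B minus D8A differences lie right of 0 for all genes but ECM22 and their median is 0.35 over the mevalonate steps, 0.63 from squalene to zymosterol and 1.13 over the last steps, with ERG1 and ERG7 among the smallest.

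Taken by position in the pathway, the median difference between the null strains was larger in the later sections. It was 0.35 over the 9 mevalonate genes, 0.63 over the 8 from squalene to zymosterol and 1.13 over the last 5. The sterol steps, the 13 genes after farnesyl diphosphate, exceeded the mevalonate steps by 0.52 in this median, with a range of 0.31 to 0.58 when a library was left out and 0.38 without D8A replicate 1. At an unadjusted p under 0.05, 10 of the 13 sterol steps differed between D8B and D8A, where 9.18% of all features did. Of the 9 mevalonate genes 0 did, a count near that share, and 0 of either group passed in limma with adjustment over all features. ERG7 (0.06), ERG1 (0.23) and ERG11 (0.43), all sterol steps, lay below the mevalonate genes ERG10 (0.52) and ERG13 (0.50). These are descriptions of the lists and were not tested as such.

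Against wild type the early and late parts were harder to set apart. In D8A the medians were -0.48 for the mevalonate steps and -0.59 for the sterol steps, a gap of -0.11, and in D8B they were -0.07 and 0.04, a gap of 0.12. The SD of this gap between replicates was 0.20. Library by library, the gap in change from the wild-type mean was -0.22 in both D8A libraries, 0.36 in D8B replicate 1 and -0.09 in D8B replicate 2, beside 0.10 and -0.10 in wild type. The libraries of D8B thus fell on either side of 0.

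The levels themselves gave a different view from the changes. The median log2(FPKM + 1) of the sterol steps exceeded that of the mevalonate steps by 0.69 and 0.53 in WT, 0.38 and 0.48 in D8A and 1.10 and 1.05 in D8B. In these level gaps the 3 strains did not overlap, with D8A lowest and D8B highest. The median fell on different genes, however. Among the sterol steps it was ERG9 in WT replicate 1 (251 FPKM), ERG4 in D8A replicate 1 (162) and ERG1 in D8B replicate 1 (308). ERG9 and ERG1 themselves changed by -0.08 and -0.10 in D8B against wild type. The gaps therefore also move with the ranks of genes and do not measure a shift shared by the late genes. With 2 libraries against 2, an exact two-sided permutation test cannot give a p below 0.333, so no test is given for such single values.

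The mevalonate steps make the isoprenoid precursor, and 0 of their 9 genes passed in limma in any comparison. At an unadjusted p under 0.05, HMG1 and ERG12, the mevalonate kinase gene, were lower in D8A, where 11.2% of all features were. In the other comparisons 0 differed, where 19.0% of all features did in D8B against wild type and 9.18% in D8B against D8A. Both D8A libraries lay below wild type for 7 of the 9, where 26.1% of all features did. Both D8B libraries lay below it for 4 and above it for 1, where 25.9% and 30.0% of all features did. The gene above was ERG10, which encodes the acetyl-CoA thiolase of the first step. HMG1 and HMG2 encode the HMG-CoA reductases, the main control point of this section. HMG1 held 51.0 and 59.5 FPKM in WT, 33.3 and 27.6 in D8A and 33.5 and 45.2 in D8B. Both null strains lay below wild type. Its change was -0.84 ± 0.22 in D8A (SE, limma adjusted p = 0.0846) and -0.49 ± 0.22 in D8B (limma adjusted p = 0.287). HMG2 held 16.4 and 23.2 FPKM in WT, 26.7 and 20.3 in D8A and 21.2 and 36.6 in D8B, and the strains overlapped.

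From squalene synthase to zymosterol, all 8 genes lay below wild type in both D8A libraries, where 26.1% of all features did. At an unadjusted p under 0.05, 6 were lower, where 11.2% of all features were. After adjustment 0 passed in limma, where 3.83% of all features were lower. The changes in D8A ran from -0.85 (ERG26) to -0.31 (ERG25). ERG1, the squalene epoxidase, held 337 and 351 FPKM in WT, 276 and 271 in D8A and 308 and 334 in D8B, the order WT, D8B, D8A. ERG11, the lanosterol demethylase and target of azole drugs, held 449 and 503 FPKM in WT, 313 and 315 in D8A and 400 and 449 in D8B. D8A lay below both other strains, with a change of -0.60 ± 0.22 (SE, limma adjusted p = 0.207).

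ERG24, ERG25, ERG26 and ERG27 follow ERG11 and encode a reductase and the demethylation enzymes that Erg28 brings together. ERG24 held 127 and 124 FPKM in WT, 76.6 and 79.1 in D8A and 144 and 144 in D8B. ERG26 held 182 and 160 FPKM in WT, 85.5 and 104 in D8A and 196 and 172 in D8B. ERG25 held 546 and 621 FPKM in WT, 508 and 431 in D8A and 790 and 960 in D8B. ERG24 and ERG25 were thus in the order D8A, WT, D8B without overlap, and ERG26 was low in D8A alone. The D8B minus D8A differences of ERG24, ERG25 and ERG26 were 0.87, 0.89 and 0.95 (limma adjusted p = 0.147, 0.273 and 0.175). ERG27 shares 288 bp with YLR101C, which was listed at 441 and 431 FPKM in WT, 294 and 285 in D8A and 506 and 414 in D8B and moved with it, and ERG7 shares 133 bp with YHR071C-A.

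Of the last 5 steps beside ERG2, ERG3 and ERG4, ERG6, the sterol methyltransferase, held 526 and 525 FPKM in WT, 338 and 339 in D8A and 640 and 628 in D8B. ERG5, the C-22 desaturase, held 114 and 114 FPKM in WT, 80.7 and 72.1 in D8A and 115 and 111 in D8B. Both were lowest in D8A, and neither passed in any comparison. The ratio of ERG4 to ERG5 FPKM was 1.55 and 1.53 in WT, 2.01 and 2.35 in D8A and 3.26 and 3.17 in D8B, a rising order without overlap. This pair and that of ERG3 with ERG2 were not planned, and each holds a gene that passed a test here.

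The remaining partner, NCP1, encodes the reductase that passes electrons to Erg11 and Erg5. It held 74.6 and 86.2 FPKM in WT, 102 and 63.0 in D8A and 127 and 217 in D8B. D8B was highest but its libraries lay far apart, and the change of 1.04 ± 0.33 did not pass (SE, limma adjusted p = 0.133). The partners therefore differed in D8A, with ERG28 and CYB5 lower and NCP1 overlapping wild type on both sides.

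Of the acyltransferases, ARE2 makes most of the ester pool in cells grown with air. It held 44.1 and 49.4 FPKM in WT, 42.9 and 35.2 in D8A and 36.8 and 47.5 in D8B, with a change of -0.16 ± 0.21 in D8B (SE, limma adjusted p = 0.752). Since ARE1 rose and ARE2 did not pass, their ratio turned. ARE2 over ARE1 was 2.26 and 2.25 in WT, 1.39 and 1.19 in D8A and 0.898 and 0.838 in D8B, without overlap between the strains. Reads of ARE1 cannot be told apart from those of YCR049C and YCR050C, and this limit holds for the ratio too.

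Among the regulators 0 of 3 passed in limma in any comparison. At an unadjusted p under 0.05, 1 was higher in D8A (ECM22) and 1 in D8B (UPC2) than in wild type, where 6.77% and 8.01% of all features were. UPC2, the sterol-sensing activator, held 6.84 and 10.6 FPKM in WT, 12.0 and 9.14 in D8A and 14.4 and 18.1 in D8B, highest in D8B. Its change there was 0.85 ± 0.27 (SE, limma adjusted p = 0.144). ECM22, its paralog, held 10.5 and 12.9 FPKM in WT, 18.3 and 18.7 in D8A and 12.9 and 17.4 in D8B, highest in D8A, where the change was 0.62 ± 0.22 (SE, limma adjusted p = 0.196). SUT1, a factor for sterol uptake, held 12.7 and 15.8 FPKM in WT, 11.8 and 14.4 in D8A and 18.2 and 19.2 in D8B, with a change of 0.38 ± 0.21 in D8B (SE, limma adjusted p = 0.384). ECM22 over UPC2 was 1.54 and 1.22 in WT, 1.52 and 2.04 in D8A and 0.900 and 0.959 in D8B. UPC2 was the higher of the pair in both D8B libraries and in no other. HMG2 over HMG1 was 0.321 and 0.390 in WT, 0.801 and 0.735 in D8A and 0.632 and 0.809 in D8B, higher in every null library than in wild type.

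**Figure D4:**
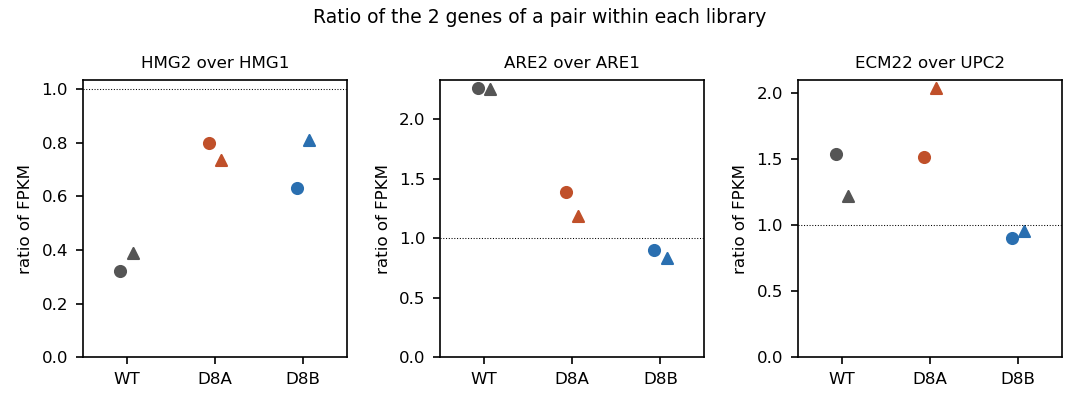
Ratio of FPKM within each library for 3 pairs of related sterol genes, on a linear axis from 0 with a dotted line at equal levels, with circles for replicate 1 and triangles for replicate 2. ARE2 over ARE1 falls from 2.26 and 2.25 in WT to 0.898 and 0.838 in D8B, and HMG2 over HMG1 is higher in all 4 null libraries than in WT. ARE1 overlaps YCR049C and YCR050C, so its FPKM may include reads of theirs.

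The number of calls depended on the short features in the fit, whose FPKM were far above their intervals. With the 6177 features of 300 bp or more alone, a group that holds all 30 members, the same log2 changes gave 7 members lower in D8A than in WT, where 8.92% of features were. HMG1, ERG24, ERG26 and ERG27 joined ERG28, ERG2 and CYB5, with limma adjusted p of 0.00505, 0.0412, 0.00774 and 0.0395. In D8B, 5 members were higher than in WT, where 4.73% of features were, as NCP1 and UPC2 (limma adjusted p = 0.000556 and 0.0189) joined ERG3, ERG4 and ARE1. Between D8B and D8A 9 members were higher in D8B, where 1.62% of features were: ERG24, ERG25, ERG26, ERG6, ERG2, ERG3, ERG4, ERG28 and NCP1. All of the added enzymes but HMG1 lie after squalene or serve those steps. This fit had 247 prior degrees of freedom, against 4.7 in the main fit, so a gene's own spread between replicates counted for little. The SE of NCP1 in D8B against wild type, 0.33 in the main fit, was 0.25 here, although its D8B libraries lay far apart. That of ERG28 in D8A went the other way, from 0.22 to 0.25. So did those of the added D8A calls: HMG1 (0.22 to 0.23), ERG24 (0.19 to 0.24), ERG26 (0.22 to 0.25) and ERG27 (0.21 to 0.25). These passed at a larger SE, with more degrees of freedom behind it. The added calls rest on that shared spread and its degrees of freedom.

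Beyond the synthesis genes, 47 others of sterol uptake, ester hydrolysis, transport, isoprenoid branches and reductase turnover were examined. In limma 1 of them was lower and 0 higher in D8A than in WT, and in D8B 3 were higher and 2 lower. Over all features 3.83% were lower and 1.23% higher in D8A, and 1.21% higher and 3.68% lower in D8B. The counts of lower genes lie near these shares. Between the null strains 0 passed, where 0.217% of all features were higher in D8B and 0.116% lower. At an unadjusted p under 0.05, 7 of the 47 were higher and 5 lower in D8A than in WT, where 6.77% and 11.2% of all features were. In D8B 11 were higher and 5 lower than in WT, where 8.01% and 11.0% were. Between the null strains 5 were higher in D8B and 1 lower, where 4.74% and 4.45% were. YEH1, a lipase that frees sterols from their esters, held 49.9 and 64.3 FPKM in WT, 16.5 and 19.3 in D8A and 26.0 and 30.9 in D8B. It was lower in both null strains, by -1.61 in D8A and -0.97 in D8B (limma adjusted p = 0.00573 and 0.0434). In D8B, where ARE1 rose, PRY1, a secreted sterol-binding protein, went from 20.2 and 21.6 FPKM in wild type to 53.6 and 84.0 (log2 change 1.64, limma adjusted p = 0.0106). ATF2, a sterol acetyltransferase, went from 22.7 and 21.6 to 48.6 and 50.7 (1.13, limma adjusted p = 0.0332), and HES1, an oxysterol-binding protein homologue, from 8.34 and 14.7 to 29.5 and 46.9 (1.66, limma adjusted p = 0.0468). SRT1, a dehydrodolichol synthase of an isoprenoid branch, fell from 7.26 and 10.7 FPKM to 1.79 and 1.70 (-1.84, limma adjusted p = 0.0256). Without wild-type replicate 2 none of these calls against wild type passed, with limma adjusted p of 0.0700 for YEH1 in D8A and, in D8B, 0.394 for YEH1, 0.0730 for PRY1, 0.236 for ATF2, 0.0667 for HES1 and 0.170 for SRT1. Without wild-type replicate 1 PRY1, YEH1, ATF2 and HES1 were lost in D8B (0.0700, 0.116, 0.158 and 0.230). YEH1, ATF2, HES1 and SRT1 were also lost without D8B replicate 1 (0.174, 0.108, 0.0590 and 0.0791) or D8B replicate 2 (0.111, 0.138, 0.208 and 0.0968). ATF2 and HES1 did not pass with a replicate block (0.0686 and 0.118), median centring (0.0767 and 0.0831) or quantile normalization (0.0745 and 0.0709) either. YEH1, PRY1, ATF2 and HES1 were lost in D8B without the filter on low values (0.0979, 0.0568, 0.0910 and 0.136), and YEH1 and HES1 there with a pseudocount of 0.1 (0.0539 and 0.0682).

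Of 7 genes for sterol uptake and the response to oxygen and haem, 0 passed in limma, and at an unadjusted p under 0.05 4 differed from wild type in D8A and 2 in D8B, where 18.0% and 19.0% of all features did. HAP1, the haem-responsive activator, held 152 and 169 FPKM in WT, 268 and 231 in D8A and 210 and 275 in D8B, above wild type in every null library (limma adjusted p = 0.207 in D8A and 0.231 in D8B). ROX1, the repressor of hypoxic genes, held 22.0 and 27.5 FPKM in WT, 34.7 and 39.8 in D8A and 27.7 and 35.7 in D8B (limma adjusted p = 0.211 in D8A and 0.435 in D8B). DAP1, the haem-binding partner of Erg11, held 244 and 208 FPKM in WT, 138 and 149 in D8A and 144 and 136 in D8B, lower in every null library (limma adjusted p = 0.153 in D8A and 0.125 in D8B).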

How the data were processed

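The authors deposited 1 FPKM table per library, with an interval and a status for each feature. Bowtie2 2.1.0, TopHat2 2.0.9, Cufflinks 2.1.1 and genome build R64 are named, per the submitters' processing notes; the sources used here do not say whether counting used strand. The FPKM values are not counts, so log2(FPKM + 1) was tested with limma 3.58.1 in R 4.3.3, using a mean per group, a variance trend, 3 residual and 4.7 prior degrees of freedom and all 6 libraries. Of 7051 features with status OK in every library, 6925 with a mean FPKM of at least 1 were tested. P-values are two-sided, with Benjamini-Hochberg adjustment over all of them and a threshold of 0.05. Depth was estimated from the steps of the interval bounds, where 87.0% to 90.0% of low bounds came out whole within 0.02 of a fragment. The fit was tested on simulated data in which every gene had the same spread. The real genes differ in spread, so that test does not measure how often these calls are wrong. The members and lists were chosen with earlier results of these data known. Values in every library are given for called members, regulators, esterification genes and known control points, and other members were added after their values were seen, for their place in the pathway. Of 30 members, 30 matched R64 in RefSeq by name and coordinates. Alternatives changed the pseudocount, the filter, the scaling, the features fitted, a replicate block and each library in turn; the interval midpoint and a robust variance prior were added after seeing the data.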

Additional observations from a re-analysis of the deposited data

Results flagged for a closer look

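ERG28 differed between the 2 null strains, which carry the same genotype label. Its log2 change against wild type was -2.02 in D8A and -0.42 in D8B, and the test of that difference, D8B minus D8A, gave 1.60 ± 0.22 (SE, n = 2 against 2, limma adjusted p = 0.0369). Both D8B libraries (269 and 253 FPKM) lay above both D8A libraries (90.0 and 81.2 FPKM), and an estimated 100 fragments lay behind the value in D8A replicate 1. ERG28 lies on chromosome V, whose features had the highest median D8B minus D8A change of any chromosome, 0.23, before 0.09 on chromosome III. Whether the change of ERG28 goes with that of its chromosome was not tested.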

How the results depend on the processing

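Of 13 calls of sterol genes, 1 (ERG28 in D8A) passed in each of 15 alternatives and 12 were lost in some, while the 18 calls of the label-check genes passed in all; 0 of these calls reversed. The number of sterol genes called in D8A against wild type, 3 as reported, was 7 with features of 300 bp or more, 6 with interval midpoints, 5 with a robust variance prior and 1 with the replicate block, and ranged from 1 to 3 without a library. In D8B against wild type, 3 became 5 with features of 300 bp or more and 1 with the replicate block, and ranged from 0 to 3 without a library. Between D8B and D8A, 1 became 9 with features of 300 bp or more, 4 with interval midpoints, 5 with the robust prior, and 0 without the filter on low values, with median centring, with quantile normalization or with the replicate block, and ranged from 0 to 1 without a library. The calls over all features moved too. Lower in D8A than in wild type were 265 of 6925 as reported and 551 of 6177 at 300 bp or more. They were 371 of 6915 with midpoints, 438 of 6925 with the robust prior and 150 of 6925 with the block. In D8B against D8A, 15, 100, 44, 59 and 7 were higher, in the same order. Against wild type 84 were higher in D8B as reported, 292 at 300 bp or more and 43 with the block. Quantile normalization moved the median of the members to -0.36 in D8A against wild type and 0.41 in D8B against D8A. Without a library these medians ranged from -0.50 to -0.39 and from 0.44 to 0.56, and that of D8B against wild type from -0.044 to 0.039. The late minus early gap ranged from -0.086 to 0.36 in D8B against wild type and from 0.31 to 0.58 in D8B against D8A. Where a fit left 1 library in a group, that library was assumed to vary like the others, and the causes of these shifts were not tested. Deviations of libraries with the same number correlated at -0.15 for WT and D8A, 0.33 for WT and D8B and -0.25 for D8A and D8B; with 2 numbers, and no positive value for all pairs of strains, the numbers were not taken to pair the samples. The 2 libraries per strain, and the depth of 4020000 fragments in D8A replicate 1, limit the precision.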
